A study of Mus musculus with 6 samples.

Results

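The Rab GTPases of membrane traffic were examined in a mouse pituitary gonadotrope cell line lysed fresh or stored in the preservation buffer RNA-Best. Members were the protein-coding genes with a numbered Rab symbol, and 58 of the 47069 genes in the count table met this rule. The rule used names only and no measured value, and it left out 1 numbered Rab gene. The members lie on 18 chromosomes. All of the 58 had a row in the table, 56 had at least 1 count in at least 1 library, and 51 passed the filter on low counts and were tested.

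Rab proteins are small GTPases that give membranes their identity. In the GTP-bound state a Rab protein sits on a membrane through a prenyl anchor and recruits effectors such as tethers, motors and fusion factors, and after GTP hydrolysis it is withdrawn into the cytosol. Exchange factors switch Rab proteins on and GTPase-activating proteins switch them off. Gonadotropes are endocrine cells that release gonadotropins from secretory granules, a step in which members of the Rab3 and Rab27 subfamilies act in many endocrine cells.

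LβT2 cells are an immortalized mouse line with gonadotrope properties, and they were used here at passage 14. All cells received gonadotropin-releasing hormone (GnRH) at 2 nM over 40 min, and no untreated group was among the samples, so the comparison was between ways of handling treated cells. The 3 fresh libraries came from cells lysed directly after trypsinization and pelleting. In the methods of the paper such lysates were then stored below freezing. The 3 RNA-Best libraries came from preserved cells, which were kept cold, at 4 °C, in that buffer over 4 days or longer before lysis. Whether the libraries of a group stem from separate cultures is not given in the sources used here, so the p-values measure the spread between these libraries, which may be technical. Fewer cells expressing a gene and less RNA per cell cannot be told apart in such bulk libraries.

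The fresh libraries held 14477304 to 47438746 counts and the RNA-Best libraries 4909418 to 11999363, so that every RNA-Best library was shallower. At these depths a count of 0 allows up to 0.0632 CPM (counts scaled to a common library size, as CPM are throughout) in the deepest library and 0.611 CPM in the shallowest, which covers counting error only. Of 5 gonadotrope markers 4 had counts, and their summed level was 2392 to 2422 CPM in fresh and 1969 to 2009 CPM in RNA-Best libraries, with Fshb at 0 in every library. Cga carried most of this sum, at a mean of 1824 CPM fresh and 1421 CPM preserved, whereas Gnrhr was higher in RNA-Best (120 against 163 CPM, log2 fold change 0.43) and Lhb was not called (27.0 against 28.3 CPM). Nr5a1 was lower (439 against 378 CPM, log2 fold change -0.21). Of 8 markers of other pituitary cells, 5 had counts and summed to 1.09 to 1.29 CPM in fresh and 1.41 to 2.38 CPM in RNA-Best, with Prl, Pou1f1 and Pax7 at 0, and Tshb, which made up most of this sum, was called higher at a mean of 0.915 CPM fresh and 1.63 CPM preserved (log2 fold change 0.91, adjusted p = 0.0035). Of 5 markers of blood, endothelial, stromal and glial cells, 4 had counts and summed to 42.2 to 43.6 CPM in fresh and 37.6 to 40.7 CPM in RNA-Best, nearly all from Pecam1, and Ptprc was at 0. The part of these markers in the differences of Rab genes was not tested.

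Many Rab genes have close paralogs, so the sequences decide which reads can be told apart. The authors sequenced single reads, and shared stretches were searched as windows of the read length. In the 15 paralog pairs compared, the coding sequences were 68.8% to 79.4% identical, and the longest run of identical bases in any pair of transcripts was 38. The pair with that run, Rab1a and Rab1b, is shown because it encodes nearly interchangeable regulators of traffic from the endoplasmic reticulum (ER) to the Golgi. The run lies in a coding window of 60 bases, taken from the GENCODE transcripts and written 5′ to 3′, in which capitals mark the 7 positions where the genes differ. The Rab1a window is coding bases 296 to 355, at chr11:20224374-20224433 on the plus strand of GRCm38, and the Rab1b window is coding bases 287 to 346, at chr19:5100732-5100791 on the minus strand.
Rab1a: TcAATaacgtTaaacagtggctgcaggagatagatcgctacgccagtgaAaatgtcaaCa
Rab1b: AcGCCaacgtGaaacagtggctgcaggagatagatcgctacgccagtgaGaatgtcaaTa

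Rab11a and Rab11b, which act in the recycling of membrane from endosomes to the surface, differ at 10 of their first 60 coding bases. These windows, again with differences in capitals, span 2 exons each on the minus strand, at chr9:64728410-64737623 for Rab11a and chr17:33749958-33760262 for Rab11b. They show that a read from either gene passes several distinguishing positions.
Rab11a: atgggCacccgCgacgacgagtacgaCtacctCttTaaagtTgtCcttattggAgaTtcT
Rab11b: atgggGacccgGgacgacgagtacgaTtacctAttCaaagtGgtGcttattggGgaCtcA

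Rab11b has a closer relative in the genome than Rab11a. The processed pseudogene Rab11b-ps2, at chr19:7398424-7399077, shares an identical run of 502 bases with the Rab11b coding sequence, and a read from this run cannot be assigned to either by its bases. The first part of the run, coding bases 153 to 253 in 2 exons at chr17:33749044-33749865 on the minus strand, is as long as a read. The pseudogene was listed with 248 to 925 counts in fresh and 92.5 to 239 counts in RNA-Best libraries, and the counts of Rab11b itself were not whole numbers in any of the 6 libraries.
Rab11b and Rab11b-ps2: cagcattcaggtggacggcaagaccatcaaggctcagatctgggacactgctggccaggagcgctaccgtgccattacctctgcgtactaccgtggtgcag

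Across the family, 37 members shared no window of the read length with another annotated gene and 21 shared at least 1. Sharing was above 50% of windows in 3 members, at 90.3% for Rab43, 76.5% for Rab4b and 72.0% for Rab2b, mostly with annotated genes that overlap them or read through them. Their values are uncertain for this reason. Whether reads were counted by strand is not given in the sources used here, and 14 members have exons that overlap a gene on the opposite strand.

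Levels of the tested members spanned from 0.138 CPM per kb of exonic sequence in Rab43 (uncertain because of shared windows) to 153 in Rab2a. On this scale, as means over all 6 libraries, Rab2a was the most abundant member, followed by Rab1b and Rab5c, both at 123, Rab7 at 71.4 and Rab1a at 68.0 CPM per kb. These 5 genes of the ER to Golgi route and the endosomes held 48.7% of the summed per kb level of the family in fresh and 46.4% in RNA-Best libraries. Below them came Rab6a at 49.2, Rab10 at 47.1, Rab35 at 42.2, Rab3b at 36.1, Rab27a at 34.7, Rab3d at 32.3 and Rab11a at 30.1 CPM per kb, and the leading 12 members together held 72.2% in fresh and 71.0% in RNA-Best. The order and the shares depend on the length used, which counts the exons of all annotated transcripts. Rab14, at 180 CPM in fresh, was at rank 24 with 13.5 CPM per kb on 13589 exonic bases. Its principal transcript has only 3081 bases. Rab1b and Rab5c overlapped in the fresh libraries, at 136 to 143 and 133 to 138 CPM per kb, while in RNA-Best Rab5c was above Rab1b without overlap, at 109 to 112 against 107 CPM per kb. In fresh cells the neighbours Rab6a and Rab10, Rab27a and Rab3d, and Rab3d and Rab11a also overlapped, and in RNA-Best Rab7 and Rab1a, and Rab3b and Rab27a did. In fresh cells 16 members had at least 100 CPM, 22 had 10 to 100 CPM and 10 had 1 to 10 CPM, while 8 were below 1 CPM with a count and 2 had none.

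**Figure D1:**
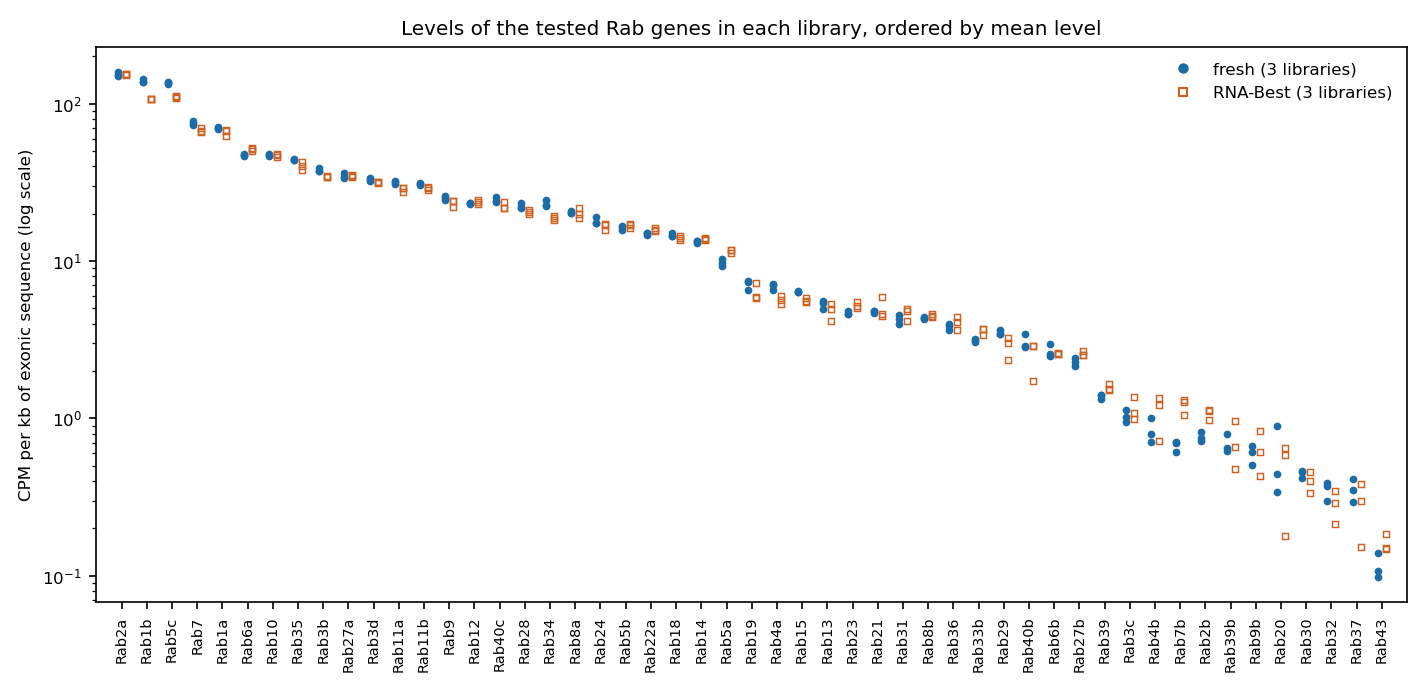
Level of each of the 51 tested Rab genes in CPM per kb of exonic sequence on a log axis, with filled circles for the 3 fresh and open squares for the 3 RNA-Best libraries, in order of the mean level. Rab2a stands highest at a mean of 153 CPM per kb, the libraries lie close together for abundant members, and they spread for members below 1 CPM per kb.

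The 7 members that were not tested had few counts. Rab38 and Rab42 had none in any library. Rab44 had 1 count in all, and Rab17, Rab25 and Rab33a were at most 0.340 CPM in any library, these 4 being named after their values were seen. Rab26, a member that acts on secretory vesicles, was listed at 0.695, 0.699 and 1.11 CPM in the fresh libraries and at 0.680, 0 and 0.582 CPM in the RNA-Best libraries.

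The summed level of the family was lower in RNA-Best. Over 3 libraries each, the sum was 3832 ± 14.7 CPM (SD) for fresh and 3628 ± 19.8 CPM (SD) for preserved cells, which gives a ratio of 0.947. Most of this difference came from Rab1b, at means of 316.1 CPM fresh and 243.1 CPM preserved, and Rab5c, at 296.7 and 241.5 CPM. The median log2 fold change of the tested members was -0.04, and 6 members were called higher, as given below. Rab genes made up 0.382% to 0.384% of the scaled counts in fresh and 0.361% to 0.364% in RNA-Best libraries, and the groups did not overlap.

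Single members were compared by the quasi-likelihood test of edgeR with Benjamini-Hochberg adjustment over all tested genes, and a gene was called when its adjusted p was below 0.05. Of the 51 tested Rab genes, 6 were higher and 13 lower in RNA-Best and 32 were not called. That is 37.3% of the members, against 50.8% of all tested genes, of which 26.0% were higher and 24.8% lower. The groups did not overlap in 12 members that were higher and 17 that were lower, or 56.9% of the members, against 57.9% of all tested genes with 28.9% in each direction. The median log2 fold change was -0.04 among the members and -0.01 among all genes, and without fresh replicate 3 the median of the members was -0.02. The differences were small, since the median absolute log2 fold change was 0.13 among the members and 0.19 among all genes, and 48 members lay within 0.5 of zero. Against a fold change of 1.2, edgeR's glmTreat called 1 member higher and 1 lower, beside 11.5% of all genes, of which 8.67% were higher and 2.82% lower.

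With DESeq2 size factors 7 members were higher and 13 lower, beside 7458 of all 14736 genes called, 51.9% of these higher. With upper quartile factors 6 members were higher and 15 lower, beside 7618 genes called, 46.0% of these higher. The split between higher and lower members moved more with offsets, filter, test or libraries. With an offset for exonic length fitted in each library, 4 members were higher and 16 lower, and 42.2% of all genes were called, 14.7% higher and 27.6% lower. With an offset for GC content 3 were higher and 18 lower, beside 48.5% of all genes, 20.7% higher and 27.8% lower. Without the filter on low counts 3 were higher and 16 lower, beside 28.0% of all genes, 11.9% higher and 16.1% lower. Without RNA-Best replicate 3, 3 members were higher and 11 lower, beside 42.4% of all genes, 22.6% higher and 19.8% lower. The Wald test of DESeq2 called 4 higher and 7 lower, beside 40.4% of all genes, 21.7% higher and 18.7% lower. After thinning to the smallest library 4 were higher and 8 lower, beside 40.3% of all genes, 21.3% higher and 19.1% lower. Of the 19 called members, 6 (Rab1b, Rab5c, Rab7, Rab7b, Rab11a and Rab34) kept their call and direction under each of the 18 alternatives other than glmTreat. DESeq2 did not call 8 of the 19 (Rab1a, Rab4a, Rab11b, Rab15, Rab23, Rab27b, Rab28 and Rab40c). Thinning ended 9 calls (Rab1a, Rab2b, Rab3b, Rab4a, Rab6a, Rab15, Rab27b, Rab35 and Rab40c) and added 2 (Rab9 and Rab22a). The GC offset ended 6 (Rab5a, Rab6a, Rab15, Rab23, Rab27b and Rab40c) and added 8 (Rab2a, Rab4b, Rab8a, Rab9, Rab10, Rab14, Rab18 and Rab27a). Dropping the filter ended the calls of Rab6a, Rab23 and Rab27b and added Rab3d, Rab9 and Rab18.

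**Figure D2:**
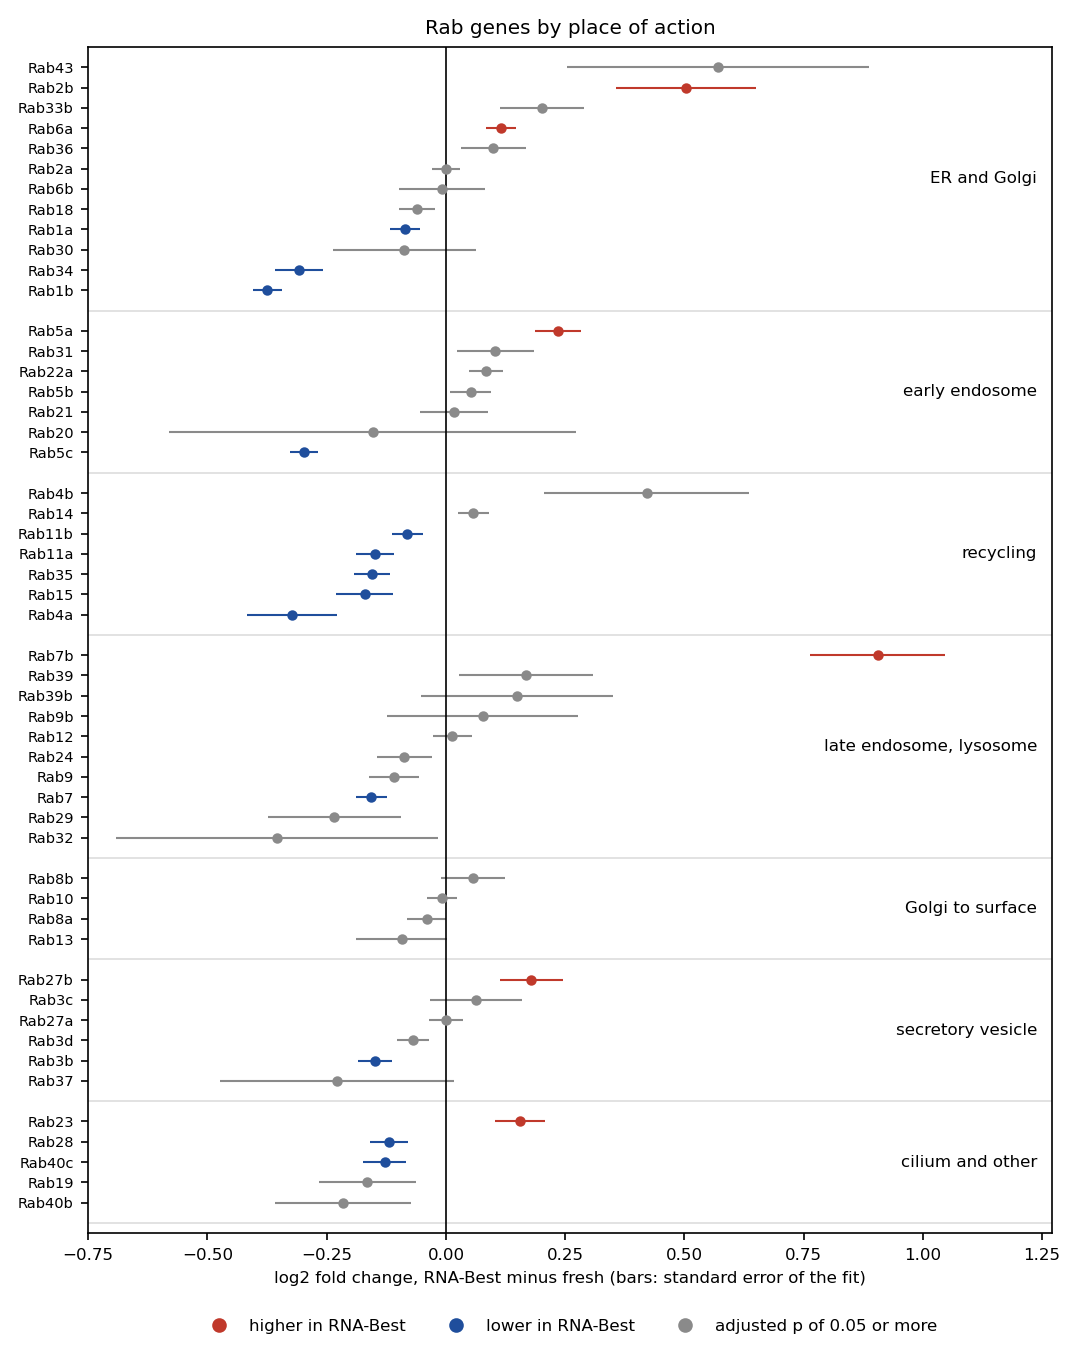
Log2 fold change of each tested Rab gene, RNA-Best minus fresh, with the standard error of the edgeR fit as bars, grouped by the place where the protein acts. Red points passed the test as higher, blue as lower and grey did not pass, and Rab7b lies farthest to the right at 0.91 and Rab1b farthest to the left at -0.37.

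On the route between the ER and the Golgi, 12 members were tested, of which 2 were higher and 3 lower, with a median log2 fold change of 0.00. This and each count by place of action below stand beside 26.0% of all genes higher and 24.8% lower, and no such group was tested against other genes. Rab1b, which controls the budding and tethering of vesicles that leave the ER, was the abundant gene with the largest fall. Its level was 310, 314 and 325 CPM in the fresh libraries and 243, 242 and 244 CPM in the RNA-Best libraries. Every RNA-Best library lay well below every fresh library, and the log2 fold change was -0.37 ± 0.03 (SE, adjusted p = 1.07e-12). Rab1b was also the member that fell by more than 1.2-fold under glmTreat. Its paralog Rab1a was at 268, 263 and 267 CPM in fresh and at 238, 254 and 260 CPM in RNA-Best. The groups did not overlap, and the log2 fold change was -0.09 ± 0.03 (SE, adjusted p = 0.0238). That call was lost without fresh replicate 1 (adjusted p = 0.0623) and without RNA-Best replicate 1 (adjusted p = 0.277), while with the GC offset Rab1a was at -0.27 and Rab1b at -0.30.

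Rab2a, which acts at the Golgi and in the fusion of late endosomes and autophagosomes with lysosomes, was the most abundant member and was not called. Its values were 325, 320 and 338 CPM in fresh and 324, 327 and 329 CPM in RNA-Best, which overlap, and the log2 fold change was 0.00 ± 0.03 (SE, adjusted p = 0.993). With the GC offset Rab2a was called lower at -0.14. The rare paralog Rab2b was at 3.13, 3.39 and 2.99 CPM in fresh and at 4.65, 4.07 and 4.74 CPM in RNA-Best. The groups did not overlap, and Rab2b was called higher with a log2 fold change of 0.50 ± 0.15 (SE, adjusted p = 0.00444), which was not kept without RNA-Best replicate 3 (adjusted p = 0.0616). Rab2b overlaps Tox4 on the other strand, and Tox4 was at 85.0 ± 1.14 CPM fresh and 94.8 ± 6.03 CPM preserved (SD, n = 3 each). The part of reads from Tox4 in the value of Rab2b was not tested.

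Rab34, which serves Golgi positioning and the formation of cilia, fell as well. It was at 53.7, 54.0 and 58.2 CPM in fresh and at 44.7, 45.8 and 43.1 CPM in RNA-Best, without overlap, with a log2 fold change of -0.31 ± 0.05 (SE, adjusted p = 3.48e-06). Rab6a, a regulator of transport within and out of the Golgi, went the other way. It was at 177, 173 and 179 CPM in fresh and at 187, 194 and 191 CPM in RNA-Best, without overlap, with a log2 fold change of 0.12 ± 0.03 (SE, adjusted p = 0.00247), while the GC offset gave -0.05 and thinning 0.05, both not called. Its paralog Rab6b, best known from neurons, was at 13.5 ± 1.33 CPM fresh and 13.0 ± 0.168 CPM preserved (SD, n = 3 each) and was not called. Rab43, named after its values were seen because its log2 fold change of 0.57 ± 0.32 (SE, adjusted p = 0.181) was the next largest after Rab7b, was at most 1.02 CPM in any library.

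At the early endosome 7 members were tested, with 1 higher and 1 lower, beside 26.0% and 24.8% of all genes, and a median log2 fold change of 0.05. The 3 Rab5 genes encode proteins that drive the fusion of early endosomes and are widely treated as isoforms. Rab5c, the most abundant of them, was at 295, 302 and 292 CPM in fresh and at 246, 239 and 240 CPM in RNA-Best. Its groups lay clearly apart, with a log2 fold change of -0.30 ± 0.03 (SE, adjusted p = 2.11e-10). Rab5a was at 54.6, 51.0 and 48.8 CPM in fresh and at 59.6, 61.8 and 61.9 CPM in RNA-Best. It was higher in every RNA-Best library than in any fresh library, with a log2 fold change of 0.23 ± 0.05 (SE, adjusted p = 0.000111), while with the GC offset it was 0.10 and not called (adjusted p = 0.073). Rab5b, at 68.3 ± 1.81 CPM fresh and 70.3 ± 1.77 CPM preserved (SD, n = 3 each), overlapped between groups and was not called (log2 fold change 0.05, adjusted p = 0.324). Rab22a and Rab31, which link early endosomes to recycling and to the Golgi, had log2 fold changes of 0.08 ± 0.04 (SE, adjusted p = 0.0503) and 0.10 ± 0.08 (SE, adjusted p = 0.293). Rab22a was called higher without fresh replicate 3 (adjusted p = 0.0447), with DESeq2 size factors, with limma voom, at 1 CPM in every library and after thinning. With the length offset Rab22a was at -0.08 and not called. Without single libraries Rab31 ranged from 0.02 to 0.18.

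Of the 7 tested members of recycling endosomes, 5 were lower and none higher, with a median log2 fold change of -0.15, beside 24.8% of all genes lower and 26.0% higher. Whether this group differs from other genes was not tested, and the calls of Rab11b and Rab15 were lost without single libraries. Rab4a, which serves rapid recycling from early endosomes, was at 12.6, 12.3 and 11.5 CPM in fresh and at 9.30, 10.6 and 9.89 CPM in RNA-Best. The groups did not overlap, and the log2 fold change was -0.32 ± 0.09 (SE, adjusted p = 0.00426), while after thinning it was -0.12 and not called (adjusted p = 0.6), and it was also not called by DESeq2 or with the replicate block and the length offset. Rab11a, the classical marker of the recycling compartment, was at 92.2, 95.2 and 96.6 CPM in fresh and at 81.7, 86.5 and 87.3 CPM in RNA-Best, also without overlap, with a log2 fold change of -0.15 ± 0.04 (SE, adjusted p = 0.00211), which was -0.31 with the GC offset. Rab35, which acts in recycling at the plasma membrane, was at 124, 124 and 126 CPM in fresh and 113, 120 and 107 CPM in RNA-Best, with a log2 fold change of -0.16 ± 0.04 (SE, adjusted p = 0.00071). Rab11b and Rab15 were lower as well. For Rab11b the log2 fold change was -0.08 ± 0.03 (SE, adjusted p = 0.0338), and the call was lost without fresh replicate 2 (0.122), RNA-Best replicate 2 (0.141) or RNA-Best replicate 3 (0.0786), while with the length offset it was -0.20 (adjusted p = 2.93e-06). For Rab15 it was -0.17 ± 0.06 (SE, adjusted p = 0.0182), and the call was lost without RNA-Best replicate 1 (0.0906). Rab4b, at 1.65 ± 0.309 CPM fresh and 2.15 ± 0.648 CPM preserved (SD, n = 3 each), overlapped between groups with a log2 fold change of 0.42 ± 0.22 (SE, adjusted p = 0.104), and it passed the test without fresh replicate 2 (0.0302) or RNA-Best replicate 2 (0.0468). Without single libraries its log2 fold change ranged from 0.23 to 0.61.

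Rab14 and Rab18 were named after their values were seen, because both were called lower with the length offset and with the GC offset. Rab14 connects the Golgi with endosomes and Rab18 acts at lipid droplets and the ER. Rab14 had 13589 exonic bases over all its annotated transcripts, the most of any tested member, but its principal transcript has 3081 bases. The length offset used the exonic bases of all transcripts. Rab14 had a log2 fold change of 0.06 without the length offset (adjusted p = 0.133) and of -0.29 with it (adjusted p = 3.62e-09). Rab18 had -0.06 without (adjusted p = 0.195) and -0.21 with the offset (adjusted p = 3.04e-05).

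Among the 10 tested members of late endosomes and lysosomes 1 was higher and 1 lower, beside 26.0% and 24.8% of all genes, with a median log2 fold change of -0.04. Rab7, the main regulator of late endosome maturation and fusion with lysosomes, was at 197, 201 and 192 CPM in fresh and at 173, 175 and 182 CPM in RNA-Best. It was lower in every RNA-Best library, with a log2 fold change of -0.16 ± 0.03 (SE, adjusted p = 0.000121). Rab7b, which acts in transport from late endosomes to the Golgi, showed the largest difference of the family. It was at 2.81, 3.28 and 3.20 CPM in fresh and at 5.89, 4.88 and 6.07 CPM in RNA-Best. The groups lay far apart relative to their spread, the log2 fold change was 0.91 ± 0.14 (SE, adjusted p = 1.73e-06), and Rab7b was the member called higher by glmTreat. No window of Rab7b was shared with another gene, and with the length offset the log2 fold change was 0.86. Rab9, which returns receptors from late endosomes to the Golgi, had a log2 fold change of -0.11 ± 0.05 (SE, adjusted p = 0.0831), and its rare paralog Rab9b overlapped between groups at 2.37 ± 0.325 CPM fresh and 2.49 ± 0.813 CPM preserved (SD, n = 3 each).

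None of the 4 members that carry cargo from the Golgi to the surface was called, beside 50.8% of all genes, and the difference was not tested. Rab10, which serves the delivery of membrane proteins to the cell surface, was at 168, 166 and 164 CPM in fresh and at 165, 162 and 168 CPM in RNA-Best. These values overlap, and the log2 fold change was -0.01 ± 0.03 (SE, adjusted p = 0.857), while with the GC offset Rab10 was called lower at -0.15 (adjusted p = 0.000172). Rab8a, which serves surface delivery and ciliary growth, and its paralog Rab8b had log2 fold changes of -0.04 ± 0.04 (SE, adjusted p = 0.428) and 0.06 ± 0.07 (SE, adjusted p = 0.514).

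In the secretory vesicle group 6 members were tested, 1 higher and 1 lower, beside 26.0% and 24.8% of all genes, with a median log2 fold change of -0.03. These proteins position and release secretory granules. Rab3b was at 132, 137 and 132 CPM in fresh and at 122, 121 and 120 CPM in RNA-Best, without overlap, with a log2 fold change of -0.15 ± 0.04 (SE, adjusted p = 0.00061), which was -0.08 and not called after thinning. Rab3d, which has a similar level, was at 139, 141 and 135 CPM in fresh and at 134, 133 and 131 CPM in RNA-Best. Its groups did not overlap, but the test was not passed (log2 fold change -0.07 ± 0.03, SE, adjusted p = 0.0926), although it was without fresh replicate 3 (adjusted p = 0.042), with upper quartile factors (0.0231), without the filter (0.0083) and with the length offset, alone (0.0196) or with the replicate block (0.038).

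Rab27a, which docks granules at the plasma membrane, was at 140, 130 and 133 CPM in fresh and at 134, 133 and 136 CPM in RNA-Best. The groups overlapped, with a log2 fold change of 0.00 ± 0.04 (SE, adjusted p = 0.996), and with the GC offset Rab27a was called lower at -0.09 (adjusted p = 0.0335). Rab27b was rarer, at 25.9, 23.1 and 24.4 CPM in fresh and 27.0, 27.1 and 28.4 CPM in RNA-Best. It was called higher with a log2 fold change of 0.18 ± 0.07 (SE, adjusted p = 0.0231), but not without fresh replicate 2 (adjusted p = 0.154) or RNA-Best replicate 3 (adjusted p = 0.17), and the length offset gave -0.10. Rab3c, at 12.5 ± 1.11 CPM fresh and 13.8 ± 2.39 CPM preserved (SD, n = 3 each), was not called (log2 fold change 0.06), and with the length offset it was called lower at -0.25. Rab37 was at 1.89 ± 0.321 CPM fresh and 1.48 ± 0.620 CPM preserved (SD, n = 3 each) and was not called.

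The remaining 5 tested members act in cilia, signalling or protein turnover, and 1 was higher and 2 lower, beside 26.0% and 24.8% of all genes. Rab23, a negative regulator of hedgehog signalling, was at 38.1, 38.2 and 39.7 CPM in fresh and at 41.4, 45.4 and 42.7 CPM in RNA-Best. The groups did not overlap, and the log2 fold change was 0.16 ± 0.05 (SE, adjusted p = 0.0124), lost without RNA-Best replicate 2 (0.054) or 3 (0.0515), while the length offset gave -0.05. Rab40c, part of a ubiquitin ligase, and Rab28, a ciliary member named after its values were seen, were lower with log2 fold changes of -0.13 ± 0.05 (SE, adjusted p = 0.0175) and -0.12 ± 0.04 (SE, adjusted p = 0.0124). The call of Rab40c was lost without fresh replicate 2 (0.122), RNA-Best replicate 2 (0.0586) or RNA-Best replicate 3 (0.208), and that of Rab28 without fresh replicate 1 (0.0883) or RNA-Best replicate 2 (0.058), while with the GC offset Rab28 was at -0.29.

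Close paralogs act at the same membrane, so their balance was examined as the log2 ratio of counts in each library. In 13 pairs both members passed the filter, and in 7 of these the groups did not overlap, as they did not in 57.9% of all single genes. An exact permutation test of 3 libraries against 3 cannot go below p = 0.1, which is 0.186 after adjustment over the 13 pairs, so no pair could pass.

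In the counts as deposited, the largest shift without overlap was that of Rab5a over Rab5c, whereas with the length or the GC offset that of Rab2a over Rab2b was larger. The latter is uncertain, since Rab2b shares 72.0% of its windows with other genes. For Rab5a over Rab5c the log2 ratio was -2.43, -2.57 and -2.58 in fresh and -2.04, -1.95 and -1.96 in RNA-Best libraries, a difference of 0.55. Rab5c stayed the more abundant gene in every library, by a smaller margin in RNA-Best. For Rab1a over Rab1b the log2 ratio was -0.21, -0.25 and -0.28 in fresh and -0.03, 0.07 and 0.09 in RNA-Best, a difference of 0.29. Rab1b thus had more counts than Rab1a in all fresh libraries and fewer in 2 of the RNA-Best libraries. Per kb the Rab1a level was 0.503 of the Rab1b level in fresh and 0.616 of it in RNA-Best.

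The ratio of Rab5a over Rab5b rose by 0.21 and that of Rab6a over Rab6b by 0.16. The ratio of Rab2a over Rab2b fell by 0.50, that of Rab27a over Rab27b by 0.17 and that of Rab3b over Rab3d by 0.08. In the Rab3b and Rab3d pair the RNA-Best libraries were at -0.13 each and the fresh libraries between -0.08 and -0.04. The pairs Rab4a and Rab4b, Rab8a and Rab8b, Rab9 and Rab9b, Rab11a and Rab11b, Rab22a and Rab31, and Rab40b and Rab40c overlapped between the groups. Among the 7 pairs without overlap, the gene with more exonic sequence was relatively higher in RNA-Best in 6, the exception being Rab6a and Rab6b. Over all 13 pairs it was so in 11, but 6 of the 13 overlapped between groups. Some pairs barely differ in length, such as Rab8a and Rab8b at 4678 and 4733 exonic bases, and Rab5a is paired with both Rab5b and Rab5c. Across all tested genes the log2 fold change also rose with exonic length, at a Spearman coefficient of 0.52, and how often other gene pairs behave so was not tested. The differences of the log2 ratios are of counts as deposited, and they moved when they were taken from the fits with an offset. With the GC offset that of Rab1a over Rab1b was 0.03, that of Rab5a over Rab5c 0.35, that of Rab5a over Rab5b 0.11, that of Rab27a over Rab27b -0.06 and that of Rab6a over Rab6b -0.07, which turned its direction, while that of Rab2a over Rab2b was -0.53 and that of Rab3b over Rab3d -0.15. With the length offset Rab1a over Rab1b was at 0.22, Rab2a over Rab2b at -0.41, Rab5a over Rab5b at 0.13, Rab5a over Rab5c at 0.39, Rab6a over Rab6b at 0.19, Rab3b over Rab3d at -0.05 and Rab27a over Rab27b at 0.09, the last with its direction turned.

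**Figure D3:**
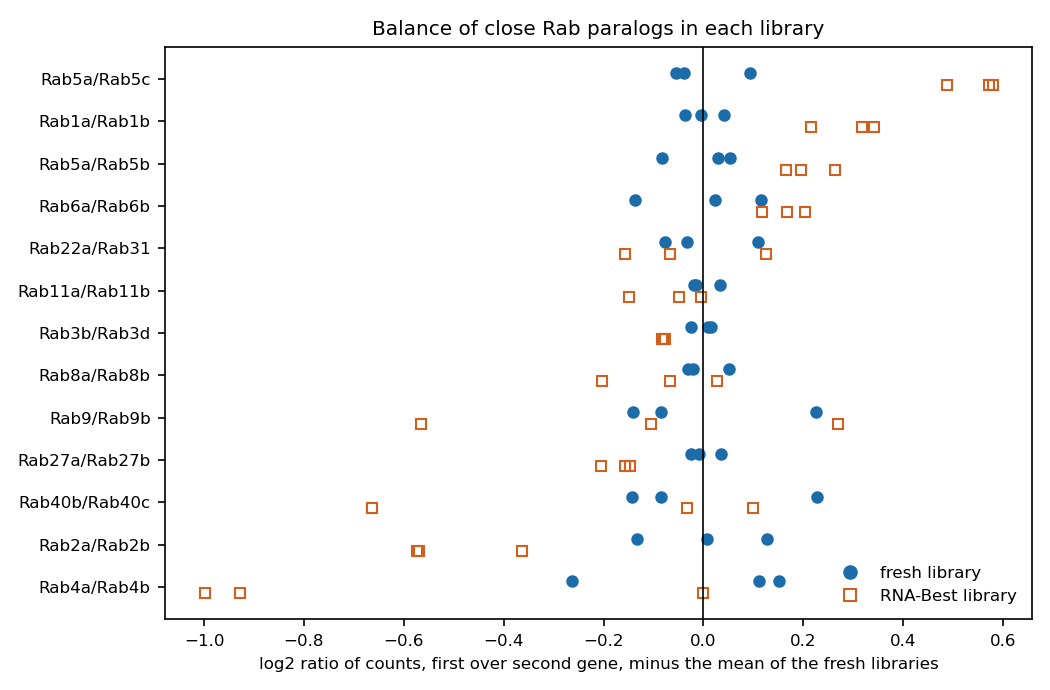
Log2 ratio of the counts of paralogous Rab genes in each library, shown as the difference from the mean of the 3 fresh libraries, with filled circles for fresh and open squares for RNA-Best. The RNA-Best libraries lie apart from the fresh libraries in 7 of 13 pairs, with Rab5a over Rab5c farthest to the right among them.

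Rab genes lend themselves to a look at transcript length, because their coding sequences are of nearly one size. Among the 51 tested members the coding length was 585 to 846 bases with a median of 648, while the 3′ untranslated region (UTR) of the principal transcript was 265 to 8596 bases long with a median of 2065. Across these genes the log2 fold change had a Spearman coefficient of 0.51 with exonic length, 0.50 with 3′ UTR length and -0.10 with coding length. The coefficient with GC content was -0.43, and length and GC content were themselves related at -0.43. Across all tested genes the coefficient with exonic length was 0.52, so the members followed the whole table in this respect. These coefficients are descriptions across genes that share the same 6 libraries and their depth, and genes are not independent replicates.

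Of the 11 members with a 3′ UTR under 1 kb none was higher and 3 were lower, with a median log2 fold change of -0.15, where 24.8% of all genes were lower and 26.0% higher; the difference was not tested. The 22 members between 1 and 2.5 kb had 3 higher and 8 lower and a median of 0.00, and the 18 members above 2.5 kb had 3 higher and 2 lower and a median of 0.06. After the length offset the medians were -0.08, -0.06 and -0.08, and the coefficient with exonic length was -0.06. Of the 19 called members, 16 were called in the same direction with the length offset, 3 were not (Rab23, Rab27b and Rab40c), and 4 members not called without the offset were called with it (Rab3c, Rab3d, Rab14 and Rab18).

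**Figure D4:**
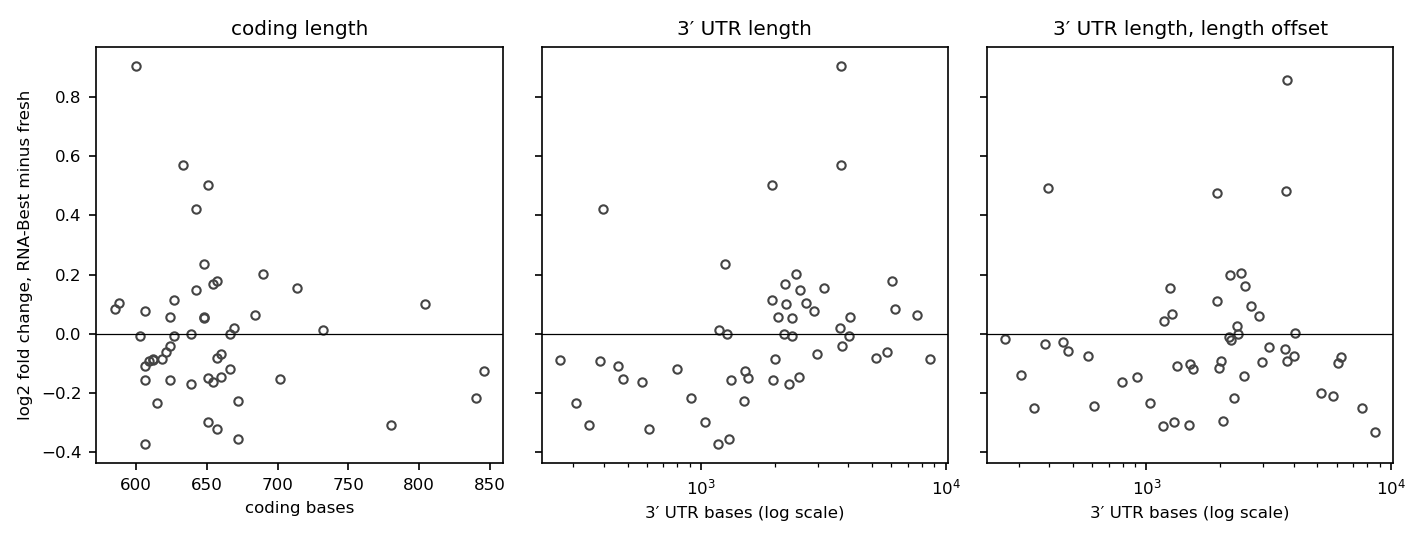
Log2 fold change of the 51 tested Rab genes, RNA-Best minus fresh, against the coding length (left) and against the 3′ UTR length on a log axis without (middle) and with (right) the offset for exonic length. Genes with 3′ UTRs under 1 kb have a median of -0.15 in the middle panel and of -0.08 in the right panel.

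Genes that load, switch, recycle or bind Rab proteins were read from lists of 139 genes, of which 132 were tested. Of these, 58 were higher and 16 lower in RNA-Best and 58 were not called, with a median log2 fold change of 0.13, beside 26.0% of all genes higher and 24.8% lower. With the length offset 23 were higher and 29 lower with a median of -0.03, beside 14.7% and 27.6% of all genes and a median of -0.05 among all genes. The share of higher genes among the called ones thus went from 78.4% to 44.2% for these lists and from 51.2% to 34.7% for all genes. With the GC offset 46 were higher and 18 lower, a share of 71.9%, against 42.7% for all genes. The counts of each list below stand beside the same shares of all genes, 26.0% higher and 24.8% lower, or 14.7% and 27.6% with the length offset, and no list was tested against other genes. The tested partner genes had a median exonic length of 6258 bases, against 3799 for the tested Rab genes.

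Among the 8 genes for delivery, recycling and prenylation 2 were higher and 1 lower, with a median of -0.05, and with the length offset 2 were higher and 3 lower. Rabac1, which encodes the prenylated Rab acceptor PRA1 of the Golgi, fell from 139 ± 2.30 CPM (SD, n = 3) to 96.3 ± 1.72 CPM (SD, n = 3), a log2 fold change of -0.53 ± 0.04 (SE, adjusted p = 2.23e-14). Chm and Chml, which encode the escort proteins that present Rab proteins to the prenylating enzyme, rose by 0.47 ± 0.07 (SE, adjusted p = 4.11e-07) and 0.50 ± 0.05 (SE, adjusted p = 6.48e-10) on the log2 scale. The 2 subunits of that enzyme, Rabggta and Rabggtb, were not called, with log2 fold changes of -0.10 and -0.05. Both genes were named after their values were seen.

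Of 43 exchange factor genes 15 were higher and 7 lower, with a median of 0.08, and with the length offset 5 were higher and 8 lower, with a median of -0.05. The list holds 10 subunits of the TRAPP complexes, which activate Rab1 and Rab11, and 18 genes of the DENN domain type and its relatives. This division was made after the values were seen. All 7 lower genes were TRAPP subunits, led by Trappc6a at -0.45 ± 0.05 (SE, adjusted p = 1.76e-09) and Trappc4 at -0.41 ± 0.06 (SE, adjusted p = 8.83e-08), and 1 subunit was higher. The TRAPP genes had a median log2 fold change of -0.15, and with the length offset 5 were lower and none higher with a median of -0.14. Of the 18 DENN genes 10 were higher and none lower, where 26.0% and 24.8% of all genes were, with Dennd4c at 0.54 ± 0.06 (SE, adjusted p = 3.01e-09) and Sbf2 at 0.52 ± 0.04 (SE, adjusted p = 8.91e-13), while with the length offset, where 14.7% of all genes were higher and 27.6% lower, 2 were higher and 1 lower, with Dennd4c at 0.33 and Sbf2 at 0.14. The median exonic length was 2432 bases for the TRAPP genes and 7786 bases for the DENN genes.

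Of 40 genes for GTPase-activating proteins 20 were higher and 6 lower, with a median of 0.14, and with the length offset 5 were higher and 12 lower, with a median of -0.05, the same as that of all genes. Tbc1d8b rose by 0.56 ± 0.06 (SE, adjusted p = 8.33e-10) and Rabgap1l by 0.37 ± 0.06 (SE, adjusted p = 1.57e-06), although Rabgap1l was at -0.12 with the length offset. Tbc1d7, which also belongs to the tuberous sclerosis complex, fell with a log2 fold change of -0.38 ± 0.09 (SE, adjusted p = 0.000729). Sgsm3 was lower at -0.26 ± 0.10 (SE, adjusted p = 0.0322), and its call was lost without fresh replicate 2 (0.125) and RNA-Best replicate 3 (0.523).

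Of 41 tested effector genes 21 were higher and 2 lower, with a median of 0.16, and with the length offset 11 were higher and 6 lower. Eea1, the tether that binds Rab5 on early endosomes, rose from 33.1 ± 1.25 CPM (SD, n = 3) to 53.3 ± 1.31 CPM (SD, n = 3), a log2 fold change of 0.67 ± 0.05 (SE, adjusted p = 2.22e-13) that was 0.43 with the length offset. Myo5a, the motor that Rab27a recruits in pigment cells, rose by 0.50 ± 0.04 (SE, adjusted p = 1.11e-13), which was 0.12 with the length offset. The lower genes were Rilpl2, at -0.36 ± 0.04 (SE, adjusted p = 2.42e-08), and Rph3al, at -0.17 ± 0.03 (SE, adjusted p = 3.29e-06). Rph3al encodes Noc2, which binds Rab3 and Rab27 proteins on secretory granules.

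**Figure D5:**
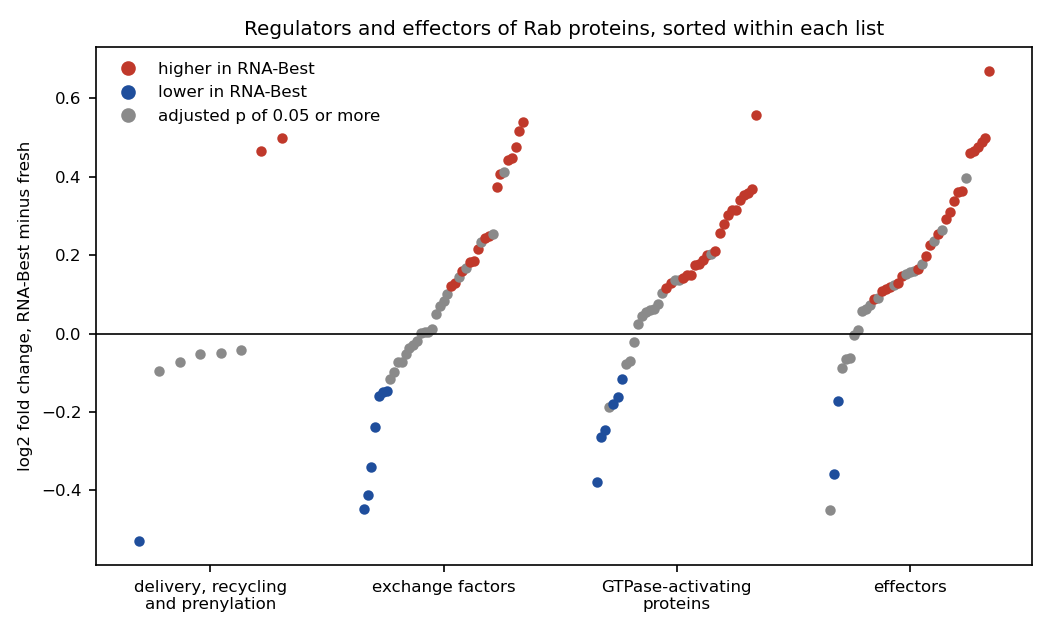
Log2 fold change, RNA-Best minus fresh, of the 132 tested genes that deliver, switch or bind Rab proteins, sorted within each of 4 lists, with red points higher, blue points lower and grey points not called by edgeR. Eea1 lies highest among the effectors at 0.67 and Rabac1 lowest of all at -0.53.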

How the data were processed

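The authors aligned single reads to the mouse genome GRCm38 with STAR 2.5.1b and counted them per gene with featureCounts 1.5.0-p1, and the deposited values are estimated counts without scaling for library size. Fractions of a count occur, so some reads were divided, and the setting is not given in the sources used here. The deposited counts were rounded to whole numbers and tested in R 4.3.3 with the quasi-likelihood test of edgeR 4.0.16 (TMM factors 0.994 to 1.01, filterByExpr with a minimum count of 10, adjusted p threshold 0.05, Benjamini-Hochberg over 14736 genes). CPM use TMM library sizes. A floor of 3 counts was used for values of 0. DESeq2 1.42.0 and voom of limma 3.58.1, the study's method, were alternatives, as were other filters, scalings and offsets (loess, span 0.5). On simulated counts for RNA-Best against fresh over 14736 genes, edgeR found 66% of the genes set to a 1.2-fold change and 100% of those set to 4-fold, and it made 15 false calls.

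Lengths, positions and sequences came from GENCODE M21, which matched 46488 of 47069 genes, while the authors used an earlier release on the same assembly. The members, role lists and partner lists were chosen with earlier results of these data known. Named were the 12 most abundant members per kb, the 6 highest and 6 lowest log2 fold changes among called members without overlap, secretory vesicle members, tested paralog pairs, members with no count, and of each partner list the 2 highest and 2 lowest called genes. Rab and partner genes described beyond this rule are marked where they are described. Same-numbered libraries did not deviate together, with correlations of -0.00824, 0.0252 and -0.00322, so replicate numbers were not used as pairs. Replicates were compared by chi-square per gene, which is near 1 for sampling noise alone, and it was 1.82 to 2.21 between fresh and 1.08 to 1.29 between the shallower RNA-Best libraries, so the spread between RNA-Best libraries was little above sampling noise. All were kept as separate samples.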

Additional observations from a re-analysis of the deposited data

How the results depend on the processing

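The number of called Rab genes, 19, was 11 with DESeq2, 2 with glmTreat against 1.2-fold and 12 after thinning all libraries to the smallest, and 14 to 21 without single libraries. It was 18 without the 3 members that share over 50% of their windows, an alternative chosen after seeing the data. With the replicate block, where samples share only a number, 19 Rab genes and 74 partner genes were called, as without it, and with the block and the length offset 19 and 53. Of all 14736 genes, 7472 were called with the block, 51.0% of these higher, and 6236 with the block and the length offset, 34.7% of these higher. The 74 partner genes became 20 with glmTreat and 64 to 71 without single libraries. The median log2 fold change of Rab genes, -0.0405, was -0.0642 with upper quartile factors, -0.0973 without a filter, -0.0038 at 1 CPM in every library, -0.0764 with the length offset, -0.1084 with the GC offset, -0.0849 with the block and length offset, -0.0648 without the members that share windows, and -0.054 to -0.0158 without single libraries. The medians of all genes were -0.0074 as reported, -0.0311 with upper quartile factors, -0.0644 without a filter, -0.008 at 1 CPM in every library, -0.051 with the length offset, -0.0414 with the GC offset, -0.0527 with the block and length offset and -0.0053 without fresh replicate 3. At 1 CPM in every library the median of the Rab genes thus lay above that of all genes. The ratio of summed levels, 0.947, was 0.956 with plain totals and 0.945 to 0.950 without single libraries. The length coefficient, 0.51, was 0.33 with the GC offset and 0.38 to 0.54 without single libraries.

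Signs turned mostly for values near 0. Rab2a was -0.0234 with upper quartile factors, -0.0463 without a filter, -0.1406 with the GC offset, -0.0051 with the block and -0.0195 to 0.0186 without single libraries. Rab27a was 0.0027 with DESeq2 size factors, 0.0024 with DESeq2, 0.0013 with voom, 0.0039 at 1 CPM and -0.031 to 0.0322 without single libraries. With the length offset alone and with the block added, Rab23 was -0.0465 and -0.0583, Rab27b -0.099 and -0.1288, Rab3c -0.2499 and -0.2269, Rab14 -0.2947 and -0.3052, Rab22a -0.0787 and -0.084, and Rabgap1l -0.1176 and -0.1401. With the GC offset Rab6a was -0.0541, Rab27b -0.0268, Rab3c -0.1145, Rab14 -0.1017, Rab5b -0.012, Rab6b 0.0113, Rab8b -0.1403 and Rab9b -0.1084. After thinning Rab5b was -0.0396, Rab6b 0.0116, Rab31 -0.0209 and Sgsm3 0.099. Without single libraries Rab10 ranged from -0.0212 to 0.0045, Rab3c from -0.0215 to 0.1401, Rab6b from -0.0538 to 0.0313, Rab8a from -0.0741 to 0.0006 and Rab9b from -0.3224 to 0.3151. The paralog ratios of Rab9 over Rab9b (-0.3356 to 0.0822), Rab22a over Rab31 (-0.1127 to 0.0291) and Rab40b over Rab40c (-0.3482 to 0.0338) changed sign as well. With offsets, alternatives chosen after seeing the data, the ratios of Rab6a over Rab6b (-0.0655) and Rab8a over Rab8b (0.0462) turned with the GC offset, and those of Rab11a over Rab11b (0.0823) and Rab27a over Rab27b (0.087) with the length offset. The causes were not tested. In 53 named genes, 812 of 950 alternative values kept direction and call. In the same direction, 71 lost a call and 24 gained one. In the 43 that turned, 9 lost a call, 5 gained one and 29 were called in neither. Depth limits the rare members, since 3 counts in the shallowest library are 0.611 CPM.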

Other observations

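Some annotated genes at Rab loci are no members but lie on or beside them. Rab10os, a noncoding gene on the strand opposite Rab10, was at 14.8 ± 0.978 CPM fresh and 18.0 ± 1.97 CPM preserved (SD, n = 3 each), a log2 fold change of 0.30 ± 0.08 (SE, adjusted p = 0.0029 in edgeR's quasi-likelihood test with Benjamini-Hochberg adjustment), while Rab10 itself was not called. Rab26os was at 9.49 ± 0.709 CPM fresh and 8.27 ± 0.557 CPM preserved (SD, n = 3 each), and was not called, whereas Rab26 had at most 1.11 CPM in any library. The pseudogene Rab11b-ps2 was at 18.4 ± 1.16 CPM fresh and 18.6 ± 1.32 CPM preserved (SD, n = 3 each), which overlap. The genes that overlap Rab43 and Rab4b, Gm45140 and Gm21983, had 1 count and no count over all libraries.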
